A study of Rattus norvegicus with 23 samples.

Results

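Interferon response genes are those that cells switch on when interferons bind their receptors, and they were followed here in brain endothelial cells under a culture model of stroke. The set held 37 genes chosen by name, and all 37 were found among the 32883 gene identifiers of the deposited counts, each under 1 identifier. By role they were 4 nucleic acid sensors, 6 transcription factors, 17 antiviral effectors, 8 modifiers (proteins that attach or remove small protein or ADP-ribose tags) and 2 chemokines. Reads were enough to test 35 of them. Mx1 had between 1 and 15 reads in a library and Zbp1 had 2 reads over all 23 libraries, and neither passed the low-count filter.

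The RNA came from brain endothelial cells of the rat, in primary culture alongside astrocytes and pericytes to mimic the blood-brain barrier, and 1 library was the endothelial lysate of 1 culture insert. The normoxia group (6 inserts) was kept under normal oxygen. The OGD/R group (6 inserts) went through oxygen-glucose deprivation followed by reoxygenation, which stands for ischemia and reperfusion. The DMT group (5 inserts) had OGD/R and the tryptamine DMT (N,N-dimethyltryptamine), which binds serotonin and sigma receptors, and the BD1063 group (6 inserts) had OGD/R, DMT and BD1063, a sigma receptor antagonist. Cells given DMT or BD1063 in normoxia, or BD1063 without DMT, were not analysed here. The sources used here give no doses or times. Nor do they give whether the inserts came from separate cell isolations, so p-values measure the spread between inserts, which may be technical.

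In the interferon pathway, sensors such as RIG-I detect viral or misplaced nucleic acid and lead to the making of type I interferons. Interferons act on neighbouring cells through receptors with Janus kinases, which activate STAT2. In a complex with IRF9 it enters the nucleus and binds the interferon-stimulated response element (ISRE) in front of antiviral genes, while interferon gamma acts mainly through another element, the gamma-activated site (GAS). Brain endothelial cells carry these receptors, and a low basal level of the pathway is usual in cells without infection.

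Gene counts summed to between 12162759 and 18565166 reads per library. Levels below are in CPM (the read count of a gene scaled to a common library total, with edgeR's TMM correction for composition), and 3 reads, the limit that a count of 0 allows, stand for 0.162 to 0.247 CPM, covering counting error only. The 9 endothelial markers found summed to 6599.8 to 8129.9 CPM over all libraries, with Cdh5 at 1567 to 2374 CPM. Of 7 astrocyte markers 6 stayed under 1 CPM in every library. The other was Gja1, and with it the list summed to 104.0 to 211.7 CPM over all libraries. Libraries OGD/R 5 and DMT 5 stood apart in the share of counts from ribosomal protein genes (3.41% and 3.604%, against 1.96% to 2.58% in the others), and OGD/R 3, DMT 3 and DMT 5 had smaller shares of the read total in genes (58.8%, 62.6% and 68.1%, against 71.5% to 75.7%). The sources used here do not give how reads shared by close family members (Ifit, Gbp, Oas and Mx genes) were divided, and values within those families are uncertain in that respect.

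RefSeq windows of the rat assembly GRCr8, from 250 bases before to 50 bases after the annotated gene start, were at hand for 28 of the 37 genes. The submitters' processing notes name another assembly, Rnor_6.0, so the coordinates below are those of GRCr8 alone. Each window was searched on both strands for the letters GAAANNGAAA (the core of an ISRE), GAAANGAAA (a shorter core of interferon regulatory factor sites) and TTCNNNGAA (the GAS), with overlapping matches counted. The ISRE core was found in 16 of the 28 windows, the shorter core in 7 and the GAS letters in 7, against 3.92%, 3.5% and 8.87% of 33469 windows of the same length. Such matches are letters in a window and not shown to be bound. Stretches that end before the gene start are shown for the genes that differ between OGD/R and normoxia below, with the match to the ISRE core, or in Irf1 to the GAS letters, in capitals, 5′ to 3′ on the strand of the gene.
Ifit3 (chr1:241527267-241527306, plus strand): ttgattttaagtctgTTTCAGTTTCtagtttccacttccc
Rsad2 (chr6:48788243-48788282, minus strand): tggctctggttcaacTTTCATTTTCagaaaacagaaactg
Ifi44 (chr2:243303842-243303881, minus strand): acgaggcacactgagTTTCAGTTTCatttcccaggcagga
Trim21 (chr1:166399372-166399404, minus strand): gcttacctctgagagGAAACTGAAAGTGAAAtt
Gbp2 (chr2:234005681-234005720, plus strand): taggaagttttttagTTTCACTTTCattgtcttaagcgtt
Eif2ak2 (chr6:21941123-21941153, plus strand): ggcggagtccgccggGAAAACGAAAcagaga
Bst2 (chr16:18255068-18255113, minus strand): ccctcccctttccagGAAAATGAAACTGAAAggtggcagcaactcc
Irf1 (chr10:38417778-38417816, plus strand): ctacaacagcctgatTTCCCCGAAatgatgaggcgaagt
The first 7 hold the ISRE core, in Bst2 and Trim21 as 2 overlapping matches, and Irf1 holds the GAS letters. Left in lower case in part are a GAS match in Bst2 and a match to the shorter core in Ifi44, which both overlap the capitals. Counted from the gene start, the match begins at -44 in Ifit3, -147 in Rsad2, -26 in Ifi44, -31 in Gbp2, -16 in Eif2ak2 and -142 in Irf1. The windows of Stat2, Herc6, Parp9 and Oasl did not hold the ISRE core. Of the windows at hand, those with the ISRE core were 3 of 4 for genes higher in OGD/R, 4 of 8 for genes lower in OGD/R, 9 of 15 for genes that did not pass the test and 0 of 1 for genes not tested.

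Against normoxia, OGD/R moved interferon response genes both ways. At an adjusted p under 0.05, 5 of 35 were higher in OGD/R (Gbp2, Eif2ak2, Mx2, Oasl and Bst2) and 10 were lower (Ifit2, Ifit3, Rsad2, Ifi44, Stat2, Irf1, Irf2, Herc6, Trim21 and Parp9). Those calls came from edgeR's quasi-likelihood test with Benjamini-Hochberg adjustment over 13834 genes. The changes were modest, from -0.82 (Rsad2) to 0.64 (Mx2) on the log2 scale. The median log2 fold change of the 35 genes was -0.099, and that of all genes tested was 0.011. In bulk RNA, fewer cells of a type and less RNA per cell cannot be told apart.

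OGD/R changed much of the transcriptome, and the counts are read against that. Of all genes tested 18.9% were called higher and 16.7% lower, beside 14.3% and 28.6% of the interferon response genes. With limma on the deposited CPM values, which keep the authors' read totals, 1286 genes were called higher and 2336 lower, against 2608 and 2308 with edgeR. On that scale 2 interferon response genes were called higher and 10 lower. The lowest library of one group lay above the highest of the other for 2 genes higher in OGD/R and 5 genes lower, which is 5.71% and 14.3% of the 35, beside 9.14% and 7.23% of all genes.

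**Figure D1:**
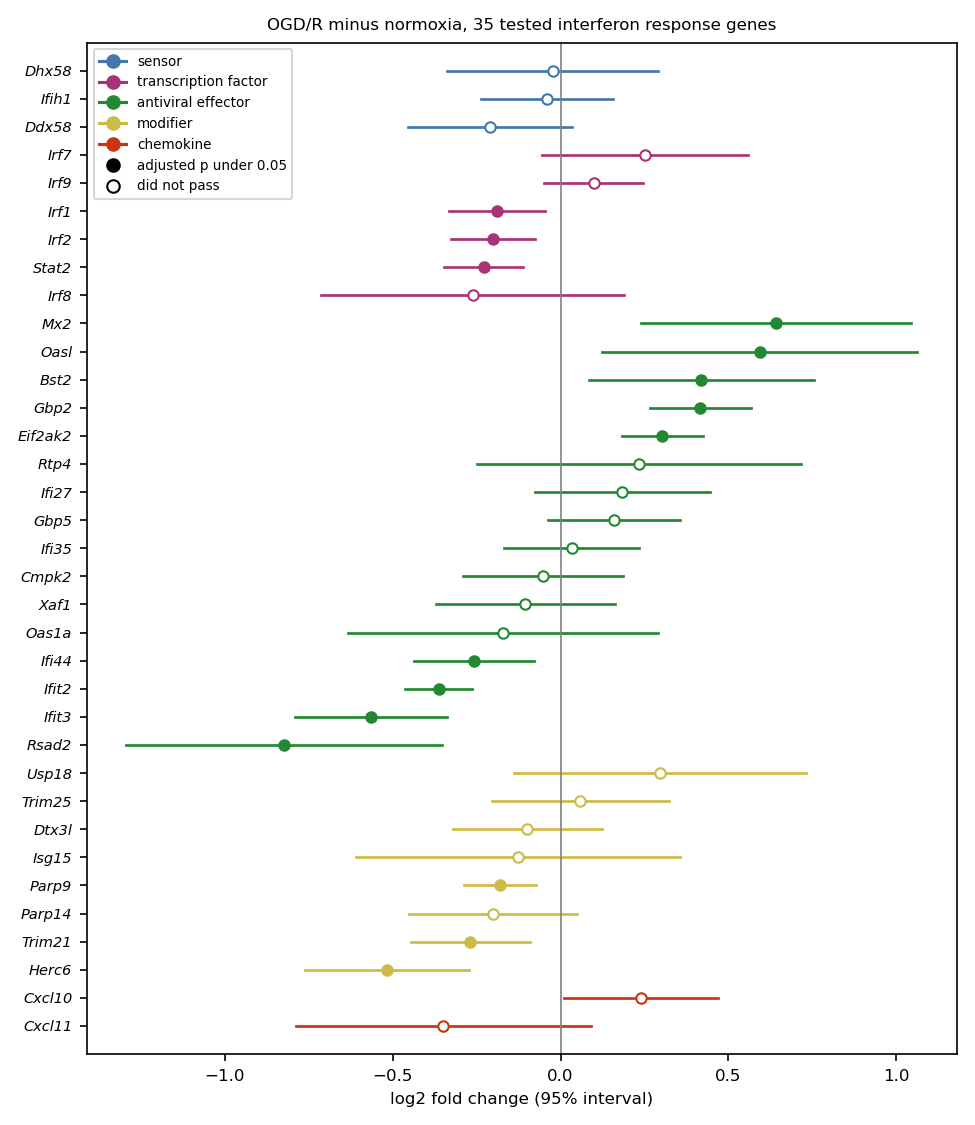
Log2 fold change of OGD/R minus normoxia (horizontal axis, with its 95% interval) for the 35 interferon response genes tested, coloured by role; filled points passed the adjusted p of 0.05 and open points did not. The 5 filled points to the right of 0 are all antiviral effectors, from Eif2ak2 at 0.30 to Mx2 at 0.64, and the 10 to the left run from Parp9 at -0.18 to Rsad2 at -0.82.

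The 3 sensors tested did not pass the test. Ddx58 encodes RIG-I, which binds viral RNA ends, and it ranged over 10.6 to 14.9 CPM in normoxia, 8.48 to 12.9 CPM in OGD/R, 9.54 to 15.3 CPM in the DMT group and 11.8 to 15.7 CPM in the BD1063 group. Its log2 fold change in OGD/R was -0.21 (95% interval -0.45 to 0.035). Ifih1, a sensor of long double-stranded RNA, ranged over 16.1 to 20.7 CPM in normoxia, 14.4 to 19.99 CPM in OGD/R, 13.7 to 23.1 CPM in the DMT group and 18.05 to 20.1 CPM in the BD1063 group. For Dhx58, a related helicase that tunes the other sensors, the ranges were 2.54 to 3.41 CPM in normoxia, 2.43 to 4.31 CPM in OGD/R, 3.37 to 4.84 CPM in the DMT group and 2.76 to 4.18 CPM in the BD1063 group. Log2 fold changes of -0.04 (-0.24 to 0.16) for Ifih1 and -0.022 (-0.34 to 0.29) for Dhx58 left room for small changes either way. Zbp1, which senses unusual double helices and can trigger cell death, had its 2 reads in libraries DMT 3 and DMT 5.

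Among the transcription factors, Stat2, Irf1 and Irf2 fell in OGD/R (50%) and none of the 6 rose. The shares of all genes tested were 16.7% lower and 18.9% higher. Stat2, part of the complex that type I interferons activate, had a lowest, median and highest library of 59.4, 60.4 and 64.8 CPM in normoxia and of 44.3, 53.02 and 58.8 CPM in OGD/R. Every OGD/R library lay under every normoxia library, and the fold change was -0.23 on the log2 scale (SE 0.057, adjusted p = 0.00321). Irf2, which competes with IRF1 for the same sites, had 65.9, 74.1 and 78.4 CPM in normoxia and 52.7, 64.7 and 67.7 CPM in OGD/R, in the same order. The groups overlapped at their edges, and the log2 fold change was -0.20 (SE 0.06, adjusted p = 0.0116). Irf1, an activator that interferon gamma induces, was at 41.6, 46.4 and 52.3 CPM in normoxia and at 38.2, 40.8 and 43.8 CPM in OGD/R. Its log2 fold change of -0.19 had an adjusted p of 0.0354, which lay between 0.0636 and 0.0844 without normoxia 1, normoxia 2, normoxia 3, OGD/R 2 or OGD/R 4, each left out alone, and was 0.055 with the replicate number as a block.

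The other 3 factors did not pass the test. Irf7, the main driver of interferon alpha genes, ranged over 5.08 to 7.57 CPM in normoxia, 6.96 to 9.13 CPM in OGD/R, 6.51 to 12.2 CPM in the DMT group and 5.08 to 8.75 CPM in the BD1063 group. Its log2 fold change in OGD/R was 0.25 (95% interval -0.055 to 0.56), and all 6 OGD/R libraries stood above the normoxia mean. Irf9, the DNA-binding part of the complex with STAT2, ranged over 14.6 to 17.9 CPM in normoxia, 14.99 to 19.04 CPM in OGD/R, 18.97 to 21.4 CPM in the DMT group and 17.6 to 21.1 CPM in the BD1063 group. Irf8, best known from myeloid cells, ranged over 1.69 to 3.07 CPM in normoxia, 1.39 to 3.62 CPM in OGD/R, 1.49 to 2.45 CPM in the DMT group and 1.42 to 2.51 CPM in the BD1063 group. Log2 fold changes were 0.099 (-0.049 to 0.25) for Irf9 and -0.26 (-0.71 to 0.19) for Irf8, whose interval was wide at 21 to 58 reads a library.

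Antiviral effectors divided into 5 genes that rose (31.25%), 4 that fell (25%) and 7 that did not pass the test. The shares of all genes tested were 18.9% higher and 16.7% lower. Ifit2, whose protein binds RNA and restrains translation, had the smallest p of the whole set. Its lowest, median and highest library were at 166, 186 and 193 CPM in normoxia and at 138, 142 and 149 CPM in OGD/R. No OGD/R library reached the normoxia range, and Ifit2 fell by 0.36 on the log2 scale (SE 0.048, adjusted p = 3.17e-06). Ifit3, a partner protein of the same family, had 37.5, 39.4 and 48.5 CPM in normoxia and 22.4, 27.9 and 36.2 CPM in OGD/R. It fell by 0.56 (SE 0.11, adjusted p = 0.000289), again with no overlap.

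Rsad2 (viperin, an enzyme that makes a chain-terminating nucleotide) was scarce, at 2.805, 3.42 and 4.16 CPM in normoxia and 1.098, 1.79 and 3.42 CPM in OGD/R. OGD/R 4 was the library inside the normoxia range, and the fold change of -0.82 on the log2 scale (SE 0.23, adjusted p = 0.007) was the largest fall in the set. Ifi44, an interferon-induced cytoplasmic protein gene, stood at 18.96, 20.5 and 23.1 CPM in normoxia and 15.1, 16.8 and 20.1 CPM in OGD/R. OGD/R 1 and OGD/R 5 overlapped normoxia, and its log2 fold change of -0.26 (SE 0.087, adjusted p = 0.0243) missed the threshold without normoxia 3 (adjusted p = 0.0532), OGD/R 2 (0.0505) or OGD/R 6 (0.063).

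Gbp2 and Eif2ak2 were the effectors that rose with groups apart. Gbp2 encodes a guanylate-binding protein, a GTPase that interferon gamma induces and that attacks the vacuoles of intracellular pathogens. Its levels were 79.5, 81.5 and 88.7 CPM in normoxia and 98.4, 110.5 and 126 CPM in OGD/R. It rose by 0.42 on the log2 scale (SE 0.073, adjusted p = 9.44e-05). Eif2ak2 encodes PKR, the kinase that halts translation when it meets double-stranded RNA, and had 51.9, 61.97 and 68.9 CPM in normoxia and 71.3, 75.03 and 85.2 CPM in OGD/R. It rose by 0.30 (SE 0.058, adjusted p = 0.000278), a call that was lost with limma on the deposited CPM (adjusted p of 0.0594 to 0.0811).

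Mx2, a dynamin-like GTPase that blocks virus replication, was at 2.001, 2.75 and 3.64 CPM in normoxia and 2.45, 4.08 and 5.599 CPM in OGD/R. OGD/R 4 and OGD/R 5 lay inside the normoxia range, and the log2 fold change was 0.64 (SE 0.19, adjusted p = 0.0126). Oasl, an oligoadenylate synthase-like protein gene, had 0.8103, 1.24 and 2.35 CPM in normoxia and 1.62, 2.12 and 2.496 CPM in OGD/R, with normoxia 3 and normoxia 5 inside the OGD/R range. Bst2 (tetherin, which holds budding virus at the cell surface) had 129, 157 and 169 CPM in normoxia and 161, 197 and 256 CPM in OGD/R, highest in OGD/R 5. Log2 fold changes of 0.59 for Oasl (adjusted p = 0.0449) and 0.42 for Bst2 (adjusted p = 0.0461) lay near the threshold. The Bst2 call was lost when any 1 library other than normoxia 3 and OGD/R 4 was left out (adjusted p of 0.0501 to 0.127), and the Oasl call without normoxia 1, 2, 4 or 6 or OGD/R 1, 2, 3 or 5 (0.0691 to 0.126).

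The remaining effectors did not pass the test in OGD/R. Ifi27, a small membrane protein gene, ranged over 352 to 453 CPM in normoxia, 375 to 614 CPM in OGD/R, 376 to 645 CPM in the DMT group and 321 to 417 CPM in the BD1063 group, highest in OGD/R 5 and in DMT 5 of their groups. Gbp5, a guanylate-binding protein gene tied to inflammasomes, ranged over 17.3 to 22.1 CPM in normoxia, 19.1 to 22.8 CPM in OGD/R, 12.9 to 20.9 CPM in the DMT group and 15.5 to 20.3 CPM in the BD1063 group. All 6 OGD/R libraries lay above the normoxia mean for Gbp5, but the interval of its log2 fold change (-0.036 to 0.36) included 0. Ifi35, a leucine zipper protein gene, ranged over 17.5 to 23.4 CPM in normoxia, 16.6 to 24.9 CPM in OGD/R, 19.2 to 27.5 CPM in the DMT group and 18.5 to 22.5 CPM in the BD1063 group. Cmpk2, a mitochondrial nucleotide kinase gene, ranged over 2.94 to 4.05 CPM in normoxia, 2.82 to 3.91 CPM in OGD/R, 3.07 to 3.84 CPM in the DMT group and 2.83 to 4.13 CPM in the BD1063 group. Xaf1, whose protein opposes an inhibitor of apoptosis, ranged over 3.002 to 4.597 CPM in normoxia, 2.82 to 4.25 CPM in OGD/R, 3.15 to 4.05 CPM in the DMT group and 3.26 to 4.37 CPM in the BD1063 group. These 5 genes had log2 fold changes in OGD/R of 0.18, 0.16, 0.033, -0.051 and -0.10, in that order. The 2 scarcer genes had wide intervals. Oas1a, which makes the adenylate chains that activate RNase L, ranged over 1.51 to 3.52 CPM in normoxia, 1.297 to 2.62 CPM in OGD/R, 1.27 to 2.68 CPM in the DMT group and 1.32 to 2.63 CPM in the BD1063 group (log2 fold change -0.17, interval -0.63 to 0.29). Rtp4, an inhibitor of RNA virus replication, ranged over 1.31 to 2.52 CPM in normoxia, 2.12 to 2.68 CPM in OGD/R, 1.27 to 4.25 CPM in the DMT group and 1.18 to 2.81 CPM in the BD1063 group (log2 fold change 0.23, interval -0.25 to 0.72). Mx1, a sister gene of Mx2, was at 0.0541 to 0.881 CPM in normoxia, 0.133 to 0.707 CPM in OGD/R, 0.0676 to 0.618 CPM in the DMT group and 0.0627 to 0.678 CPM in the BD1063 group, in part under the floor of 3 reads.

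**Figure D2:**
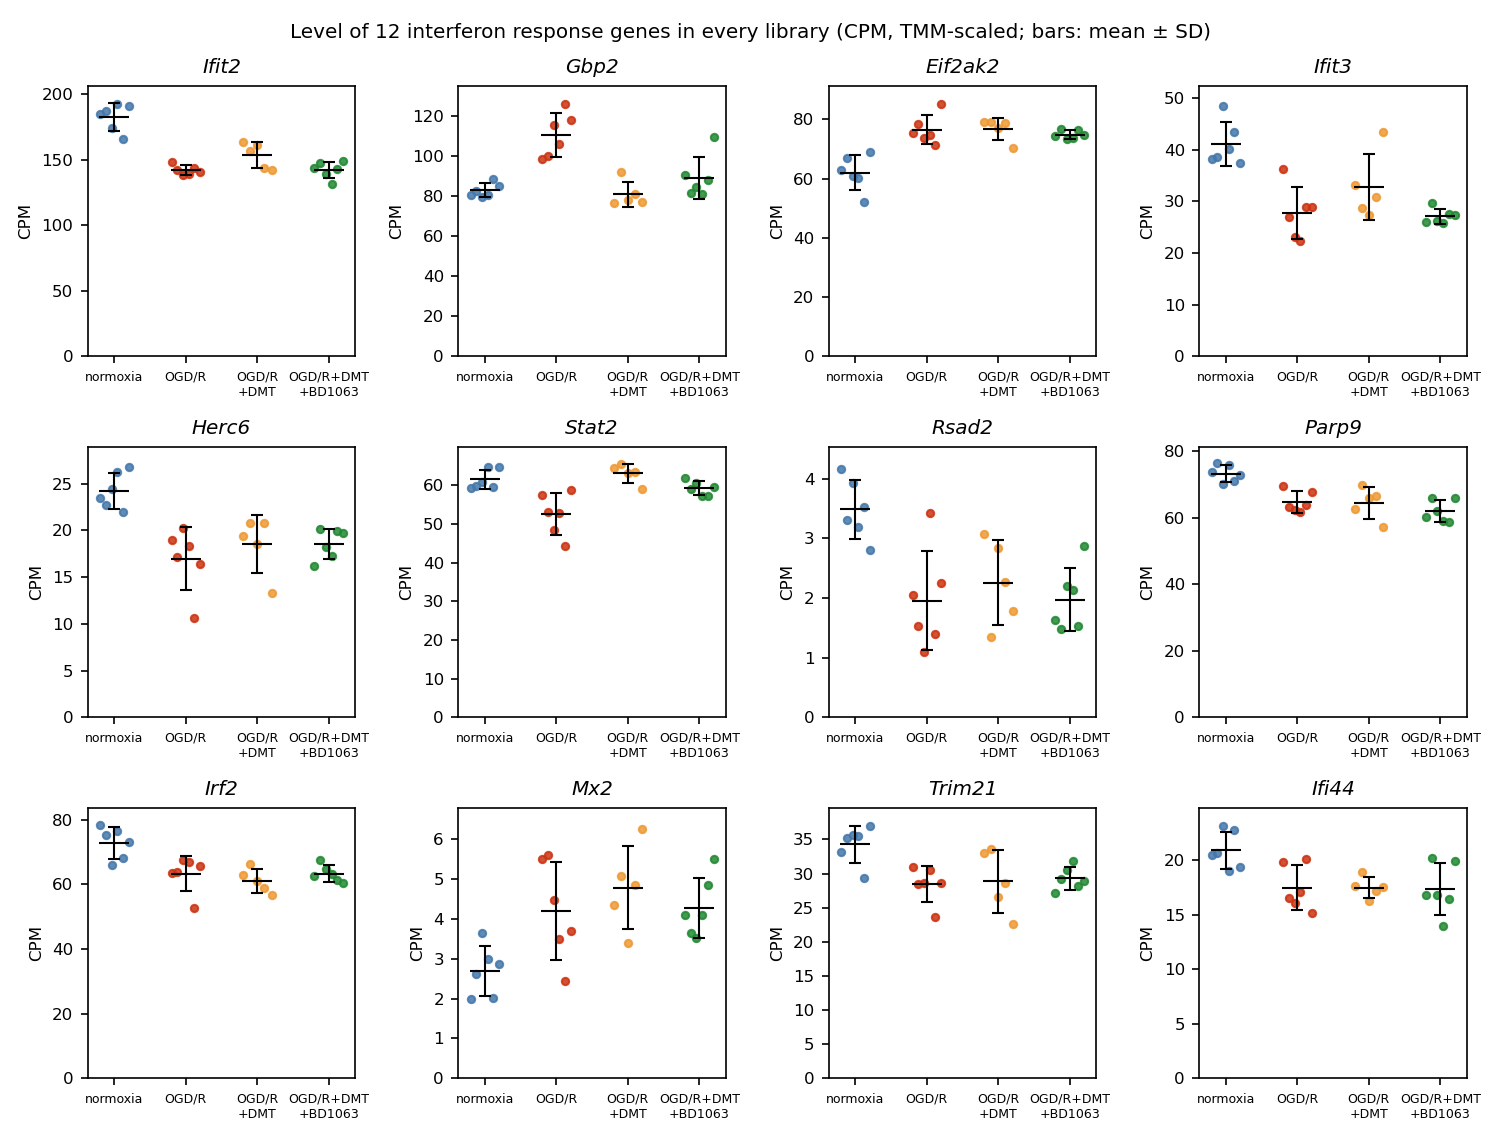
Level in CPM (vertical axis from 0, TMM-scaled) of the 12 interferon response genes with the smallest p in OGD/R against normoxia, in each library of the 4 groups; points are libraries and bars the mean with its SD. Ifit2 lay between 138 and 149 CPM in OGD/R and between 166 and 193 CPM in normoxia, while Gbp2 stood at 98.4 to 126 CPM in OGD/R and 76.6 to 91.8 CPM in the DMT group.

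Of the 8 modifiers, Herc6, Trim21 and Parp9 fell (37.5%) and none rose, beside 16.7% called lower and 18.9% higher of all genes tested. Herc6, in the mouse the main ligase that attaches ISG15, had 21.9, 23.9 and 26.7 CPM in normoxia and 10.7, 17.7 and 20.2 CPM in OGD/R (lowest, median and highest). No OGD/R library reached the normoxia range, and Herc6 fell by 0.52 on the log2 scale (SE 0.12, adjusted p = 0.00144). Trim21, a ubiquitin ligase that recognises antibody on viruses in the cytosol, was at 29.4, 35.4 and 36.96 CPM in normoxia and 23.6, 28.6 and 30.9 CPM in OGD/R, with some overlap. Its log2 fold change was -0.27 (SE 0.085, adjusted p = 0.017). Parp9 works with the ubiquitin ligase DTX3L at damaged DNA and had 69.98, 73.1 and 76.4 CPM in normoxia and 61.6, 63.4 and 69.5 CPM in OGD/R. That was the smallest fold change called, -0.18 (SE 0.052, adjusted p = 0.00948), and the groups did not overlap.

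The other 5 modifiers did not pass the test. Isg15, the ubiquitin-like tag itself, ranged over 2.31 to 3.72 CPM in normoxia, 1.75 to 4.16 CPM in OGD/R, 1.86 to 4.32 CPM in the DMT group and 1.51 to 3.58 CPM in the BD1063 group. Usp18, which removes ISG15 and also damps the interferon receptor, ranged over 0.977 to 2.62 CPM in normoxia, 2.06 to 3.298 CPM in OGD/R, 1.72 to 3.85 CPM in the DMT group and 1.95 to 3.26 CPM in the BD1063 group. All 6 OGD/R libraries exceeded the normoxia mean for Usp18, with a log2 fold change of 0.30 and an interval of -0.14 to 0.73. Trim25, the ligase that assists RIG-I, ranged over 36.2 to 55.7 CPM in normoxia, 34.3 to 55.8 CPM in OGD/R, 30.3 to 47.8 CPM in the DMT group and 41.7 to 55.97 CPM in the BD1063 group. Parp14, an ADP-ribosyltransferase, ranged over 88.9 to 131 CPM in normoxia, 76.8 to 111 CPM in OGD/R, 68.8 to 121 CPM in the DMT group and 102 to 121 CPM in the BD1063 group. Dtx3l, the partner of PARP9, ranged over 15.3 to 20.98 CPM in normoxia, 14.7 to 18.9 CPM in OGD/R, 12.01 to 19.4 CPM in the DMT group and 17.98 to 22.4 CPM in the BD1063 group. DMT 5 was the lowest library of its group for Trim25, Parp14 and Dtx3l. Log2 fold changes in OGD/R were -0.13 for Isg15, 0.059 for Trim25, -0.20 for Parp14 and -0.099 for Dtx3l.

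Neither chemokine passed the test. Cxcl10 draws activated T cells through CXCR3, and its lowest, median and highest library were 9.91, 10.9 and 13.9 CPM in normoxia and 11.1, 13.6 and 16.1 CPM in OGD/R. Its log2 fold change was 0.24 (interval 0.011 to 0.47, adjusted p = 0.0961), and it was called by limma voom, by edgeR without normoxia 5, and by edgeR without OGD/R 3, OGD/R 5 and DMT 5 together. In the DMT group Cxcl10 stood at 16.2, 11.1, 12.6, 11.6 and 13.997 CPM and in the BD1063 group at 10.6 to 13.8 CPM. Cxcl11, which binds the same receptor, ranged over 1.56 to 2.41 CPM in normoxia, 0.943 to 1.96 CPM in OGD/R, 1.384 to 3.43 CPM in the DMT group and 1.24 to 2.02 CPM in the BD1063 group, with a log2 fold change in OGD/R of -0.35 (interval -0.79 to 0.09).

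Some markers of other cells were called in OGD/R too, in a comparison where 18.9% of all genes were called higher and 16.7% lower. The 13 microglia and leukocyte markers summed to 5.02 to 9.14 CPM in normoxia, 4.87 to 19.5 CPM in OGD/R, 8.85 to 17.6 CPM in the DMT group and 5.67 to 13.2 CPM in the BD1063 group. Of the 8 tested, 7 had a log2 fold change above 0 in OGD/R, with a median of 1.12, and 2 were called, Itgam and C1qa. The C1qa call was lost in 10 of 23 alternatives (adjusted p of up to 0.209). Ptprc, Cx3cr1 and Spi1, markers in this list, had at most 0.673, 0.295 and 0.512 CPM. The 7 fibroblast and meningeal markers summed to 426 to 946 CPM in normoxia and 136 to 419.8 CPM in OGD/R, and 3 of 4 tested were lower (Col1a1, Col3a1 and Fbln1). The 7 pericyte markers summed to 9.79 to 24.4 CPM in normoxia and 6.34 to 14.2 CPM in OGD/R, with Pdgfrb called lower and Kcnj8 higher among 5 tested. Of the 9 endothelial markers 2 were called higher (Kdr and Flt1) and 3 lower (Tie1, Erg and Slco1a4), and the astrocyte marker Gja1, the only one of its list tested, was called higher. The Flt1 call was lost in 17 of 25 alternatives (adjusted p of up to 0.432) and the Gja1 call in the 3 limma fits on the deposited CPM (0.182 to 0.266). The Col1a1 call was lost without OGD/R 3, OGD/R 5 and DMT 5 together (0.0873). No listed marker was at 0 in every library. The part of these cells in the interferon response values was not tested.

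DMT changed 2 of the 35 genes against OGD/R alone, Gbp2 and Stat2, and both had moved the other way in OGD/R against normoxia. In the DMT group Gbp2 stood at 76.6, 91.8, 78.2, 80.8 and 76.98 CPM, under all 6 OGD/R libraries (98.4 to 126 CPM). Gbp2 fell by 0.45 on the log2 scale (SE 0.077, adjusted p = 0.00782 by edgeR's quasi-likelihood test), and its mean was 80.9 ± 6.302 CPM (SD, 5 libraries) beside 82.8 ± 3.52 CPM in normoxia. Stat2 in the DMT group was at 64.5, 65.5, 63.1, 63.4 and 59.1 CPM, above all 6 OGD/R libraries (44.3 to 58.8 CPM). It rose by 0.27 (SE 0.06, adjusted p = 0.044) to a mean of 63.1 ± 2.41 CPM, beside 61.6 ± 2.48 CPM in normoxia. The same OGD/R libraries enter both comparisons, so opposite signs in them are not independent of each other.

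Few genes of any kind were called with DMT. Of all genes tested 0.325% were called higher and 0.166% lower in the DMT group, beside 1 of 35 (2.86%) each way here. That background depended on single libraries. Without DMT 5, 369 genes were called higher and 714 lower, and 3 of the 35, and without any 1 of DMT 1 to 4 or OGD/R 2, 3 or 6 it was 19 to 29 higher and 4 to 9 lower. With OGD/R 1, 4 or 5 left out alone it was 37 to 56 higher and 19 to 38 lower. By limma on the deposited CPM 5 genes were called higher and 0 lower, against 45 and 23 with edgeR, and neither Gbp2 (adjusted p of 0.129 to 0.17) nor Stat2 (0.558 to 0.602) passed. Groups that did not overlap were found for 0.795% of all genes on the higher and 0.578% on the lower side, and here for Stat2 and Gbp2 alone. The Stat2 call was lost with OGD/R 2, 3, 4 or 5 or DMT 1, 2, 3 or 4 left out one at a time (adjusted p of 0.0548 to 0.114), and both calls with only the DMT and OGD/R groups in the fit (0.177 for Gbp2 and 0.504 for Stat2). Without OGD/R 3, OGD/R 5 and DMT 5 together both passed, at log2 fold changes of -0.36 for Gbp2 (adjusted p = 0.0239) and 0.21 for Stat2 (0.0319).

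At an unadjusted p under 0.05 there were 6 of 35 genes (17.1%) with DMT, namely Gbp2, Stat2, Irf9, Dhx58, Ifit2 and Cxcl11, beside 1679 of all 13834 genes (12.1%). Irf9, which joins STAT2 in the same complex, had 20.1, 20.1, 18.97, 21.4 and 20.2 CPM in the DMT group and 14.99, 16.4 and 19.04 CPM (lowest, median and highest) in OGD/R. Its log2 fold change of 0.26 had an adjusted p of 0.133 and was called by edgeR when DMT 5 was left out. Ifit2 was at 164, 156, 161, 144 and 142 CPM, with a log2 fold change of 0.11 (interval 0.0065 to 0.22). Ifit3 was at 33.1, 28.8, 27.4, 30.8 and 43.5 CPM, highest in DMT 5, with a log2 fold change of 0.24 (-0.00091 to 0.47). For genes that OGD/R had raised, Eif2ak2 stood at 79.1, 78.98, 77.01, 78.7 and 70.3 CPM and its log2 fold change with DMT was 0.0073, with an interval of -0.12 to 0.13.

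Several genes lower in OGD/R had log2 fold changes near 0 with DMT. Beside their log2 fold changes in OGD/R against normoxia (Parp9 -0.18, Irf2 -0.20, Irf1 -0.19), the intervals leave room for a partial reversal. Parp9 was at 62.7, 69.9, 65.9, 66.6 and 57.02 CPM in the DMT group (log2 fold change against OGD/R -0.0055, interval -0.12 to 0.11). Irf2 stood at 62.8, 66.3, 61.04, 58.8 and 56.7 CPM (-0.052, -0.18 to 0.079). Irf1 had 35.4, 40.6, 42.4, 41.8 and 43.3 CPM (-0.00099, -0.15 to 0.15). Herc6, Trim21, Ifi44 and Rsad2 did not pass either. Their DMT libraries ranged over 13.3 to 20.8, 22.6 to 33.6, 16.2 to 18.9 and 1.35 to 3.07 CPM. Mx2 with 4.34, 5.07, 3.404, 4.84 and 6.24 CPM and Oasl with 1.42, 1.22, 1.702, 2.202 and 2.196 CPM overlapped the OGD/R libraries. Over all 35 genes the median log2 fold change with DMT was 0.024, beside 0.00039 for all genes.

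**Figure D3:**
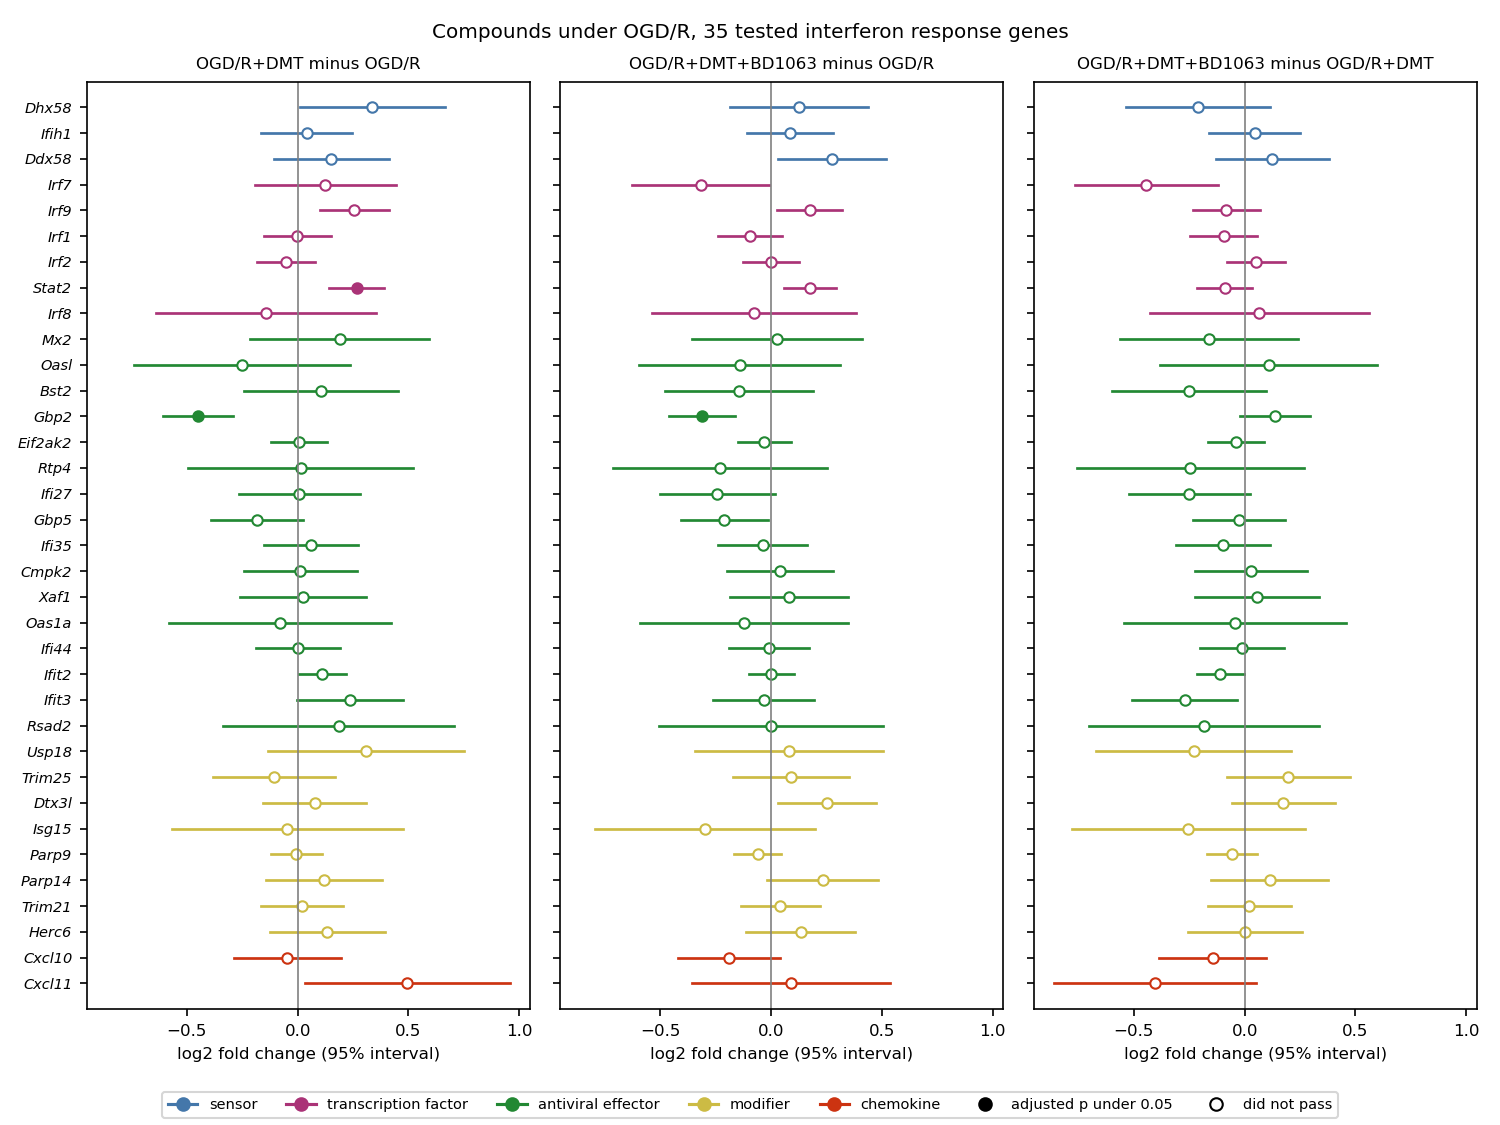
Log2 fold changes (horizontal axis, with 95% intervals) of the 35 interferon response genes for the DMT group minus OGD/R (left), the BD1063 group minus OGD/R (middle) and the BD1063 group minus the DMT group (right), coloured by role; filled points passed the adjusted p of 0.05. Gbp2 is filled at -0.45 on the left and at -0.31 in the middle, Stat2 is filled at 0.27 on the left, and no point is filled on the right.

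Adding BD1063 to DMT gave no called difference from DMT alone. None of the 35 genes passed, and 0.0% of all genes did with edgeR. DESeq2 called 1 gene of all and limma voom 0. At an unadjusted p under 0.05 there were 3 of the 35 (8.57%), namely Irf7, Ifit2 and Ifit3. That share lay near the 7.26% of all genes (1005). Gbp2 stood at 81.01, 86.04 and 109 CPM (lowest, median and highest) in the BD1063 group. Against the DMT group its log2 fold change was 0.14 with an interval of -0.02 to 0.30 (adjusted p = 0.664). Stat2 had 57.3, 59.3 and 61.8 CPM, and its difference from the DMT group was -0.091 with an interval of -0.22 to 0.033. Neither interval shows that the groups were alike, and changes of up to those bounds cannot be told from 0 here.

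The 3 genes at an unadjusted p under 0.05 were all lower with BD1063. Irf7 ranged over 5.08 to 8.75 CPM in the BD1063 group and had 6.51, 8.51, 7.21, 9.06 and 12.2 CPM in the DMT group, where DMT 5 was highest. Its log2 difference was -0.44 (interval -0.77 to -0.12, adjusted p = 0.664). Ifit2 had 131, 143 and 149 CPM in the BD1063 group and a log2 difference of -0.11 (-0.21 to -0.0051). Ifit3 had 25.9, 26.8 and 29.8 CPM and a log2 difference of -0.27 (-0.51 to -0.033). None of these held after adjustment over all genes.

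Against OGD/R alone, the BD1063 group had 1 called gene, Gbp2. It fell by 0.31 on the log2 scale (SE 0.073, adjusted p = 0.0247 by edgeR's quasi-likelihood test). Library BD1063 6 at 109 CPM reached into the OGD/R range and the other 5 lay below it. The call was lost without OGD/R 5 (adjusted p = 0.0579), BD1063 3 (0.0681), BD1063 4 (0.0636) or BD1063 5 (0.065), and with limma on the deposited CPM (0.185 to 0.26). Stat2 lay above the OGD/R mean in 6 of 6 libraries, with a log2 fold change of 0.17 (0.056 to 0.29) and an adjusted p of 0.0705. It was called by DESeq2 and limma voom, with replicate numbers as a block, and without OGD/R 6. Of all genes tested 1.86% were called higher and 3.46% lower, beside 0 and 1 of 35 here. With BD1063 3, 4, 5 or 6 or OGD/R 2, 5 or 6 left out alone these were 31 to 134 genes higher and 41 to 224 lower, and with BD1063 1 or 2 left out 157 to 188 and 259 to 297. Without OGD/R 1 they were 170 and 387, without OGD/R 3 351 and 354, and without OGD/R 4 324 and 651. The deposited CPM gave 506 higher and 17 lower genes against 257 and 478.

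The remaining genes did not pass against OGD/R. At an unadjusted p under 0.05 there were 7 of 35 (20%), which were Gbp2, Stat2, Irf9, Ddx58, Dtx3l, Irf7 and Gbp5, a share below the 24.9% of all genes (3438). Ddx58 had 11.8, 13.6 and 15.7 CPM in the BD1063 group, with a log2 fold change of 0.28 (interval 0.033 to 0.52). Dtx3l had 17.98, 19.97 and 22.4 CPM and a log2 fold change of 0.25 (0.031 to 0.47), and passed when only the BD1063 and OGD/R groups were fitted. In both, all 6 libraries lay above the OGD/R mean. Irf9 had 17.6, 18.6 and 21.1 CPM, Irf7 5.08, 6.103 and 8.75 CPM and Gbp5 15.5, 18.02 and 20.3 CPM. Log2 fold changes against OGD/R were 0.17 for Irf9, -0.32 for Irf7 and -0.21 for Gbp5. Ifit2 and Ifit3, which had the smallest p among the genes lowered in OGD/R, had log2 fold changes of 0.0014 (-0.099 to 0.10) and -0.033 (-0.26 to 0.19). Mx2 with 3.51, 4.101 and 5.49 CPM, Oasl with 1.07, 1.98 and 2.39 CPM and Rsad2 with 1.48, 1.89 and 2.87 CPM overlapped OGD/R as well.

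Within groups, libraries DMT 5 and OGD/R 5 stood apart. The summed level of the 35 genes was 1556 ± 15.9 CPM in normoxia, 1590.4 ± 108 CPM in OGD/R, 1617 ± 164 CPM in the DMT group and 1504 ± 55.0 CPM in the BD1063 group (mean ± SD). DMT 5 reached 1908 CPM while the other DMT libraries had 1528 to 1582 CPM. In that library Bst2 stood at 398 CPM against 169 to 183 CPM in the other 4, and Ifi27 at 645 CPM against 376 to 410.4 CPM. OGD/R 5 had the highest sum of its group, 1754 CPM, and at the same time the lowest value of its group for 15 of the 35 genes, Herc6 among them at 10.7 CPM. DMT 5 was highest for 11 genes and lowest for 13, counts near those of DMT 1 (9 and 11). Both libraries also had the highest ribosomal protein shares given above, and the part of this in the interferon response values was not tested.

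**Figure D4:**
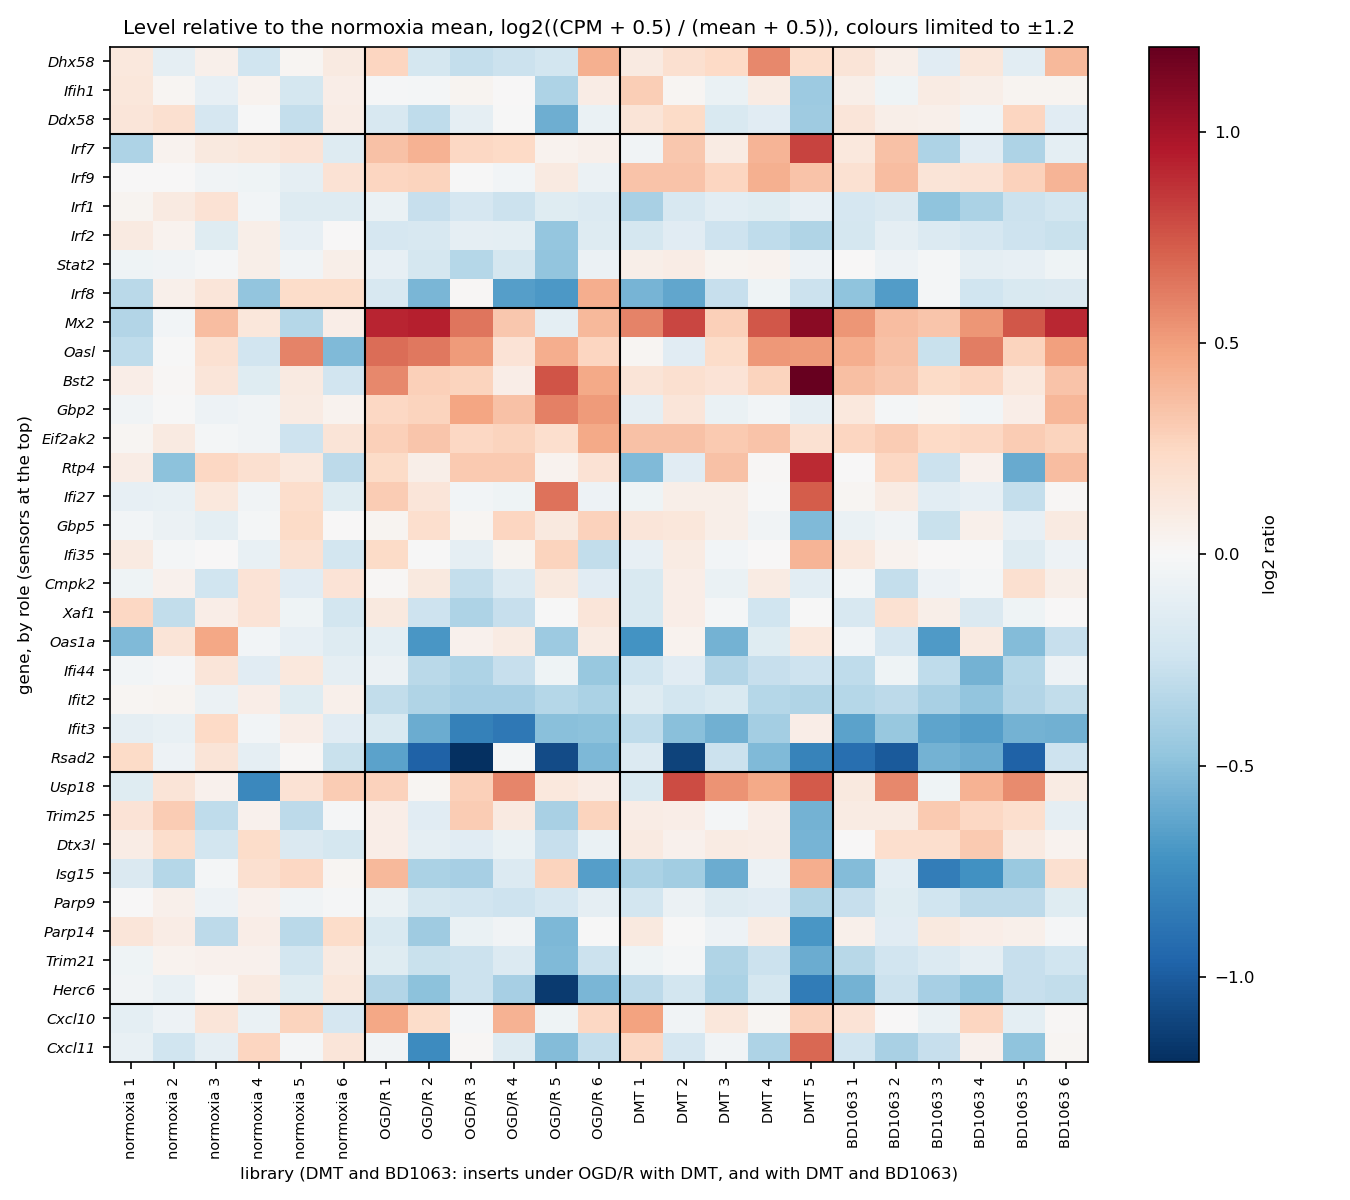
Level of the 35 tested interferon response genes (rows, by role) in each of the 23 libraries (columns), as the log2 ratio to the normoxia mean after adding 0.5 CPM, with colours limited to 1.2 either way. Ifit2, Ifit3 and Rsad2 are mostly blue under OGD/R in all 3 groups, Mx2 and Eif2ak2 mostly red, and DMT 5 stands out for Bst2 (398 CPM) and Ifi27 (645 CPM).

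Upstream of these genes, 9 interferon genes were searched for and none had enough reads to be tested. Ifne had 10 reads over all libraries, Ifnb1 2 and Ifna4 1, and Ifna1, Ifna2, Ifng, Ifnl1, Ifnl3 and Ifnk had 0 in every library, which allows up to 0.162 to 0.247 CPM. In all, 65 of 70 further pathway gene names searched for were found and 51 tested, of which 6 were higher and 15 lower in OGD/R. These were 11.8% and 29.4%, beside 18.9% and 16.7% of all genes tested. Of the 9 receptor chains and kinases 5 fell (55.6%) and 0 rose. Ifngr1, the ligand-binding chain of the interferon gamma receptor, had 902, 936 and 990.4 CPM in normoxia and 557, 625 and 644 CPM in OGD/R and fell by 0.63 on the log2 scale (SE 0.051, adjusted p = 1.75e-09). Ifnar1, a chain of the type I receptor, had a mean of 129 CPM in normoxia and 111 CPM in OGD/R (log2 fold change -0.22, SE 0.058, adjusted p = 0.00432). Tyk2, the kinase on that chain, went from 48.6 to 41.01 CPM (-0.25, SE 0.071, adjusted p = 0.00897). The partner chain Ifnar2 (28.2 to 24.7 CPM, -0.19, SE 0.07, adjusted p = 0.0332) missed the threshold without normoxia 1, 2 or 3 or OGD/R 2, 3 or 5 (adjusted p of 0.0514 to 0.0925). Il10rb was the other gene called lower, and that call was lost in 13 of 25 alternatives (adjusted p of up to 0.128). Over the alternatives 3 to 5 receptor chains and kinases were called lower.

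Of 12 transducers tested 2 rose (16.7%) and 4 fell (33.3%), and with limma on the deposited CPM 1 rose. Of all genes tested 18.9% were called higher and 16.7% lower in OGD/R. Cgas, the sensor of cytosolic DNA, had 3.802, 4.47 and 4.95 CPM in normoxia and 6.98, 7.996 and 8.399 CPM in OGD/R, and rose by 0.84 on the log2 scale (SE 0.10, adjusted p = 1.07e-06). Irf3, which switches on the interferon beta gene, went from a mean of 107 to 88.8 CPM (-0.27, SE 0.065, adjusted p = 0.00225). Mavs, the mitochondrial adaptor of RIG-I, went from 21.9 to 18.2 CPM (-0.27, SE 0.073, adjusted p = 0.00526). Tbk1 and Stat3 were the other genes called lower. Among 9 inhibitors 1, Socs1, was called higher, at 0.374 to 0.912 CPM in normoxia and 0.562 to 1.59 CPM in OGD/R (adjusted p = 0.0383). That call was lost without normoxia 1, 2, 5 or 6 or OGD/R 1, 4 or 5 (adjusted p of 0.0558 to 0.155). In all it was lost in 13 of 22 alternatives. Among them were DESeq2 (0.0528), limma voom (0.0806) and edgeR without OGD/R 3, OGD/R 5 and DMT 5 together (0.208).

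A further 21 interferon-induced genes were tested, and 3 rose (14.3%) and 6 fell (28.6%) in OGD/R, beside 18.9% and 16.7% of all genes. Lgals3bp, a secreted glycoprotein gene, had 36.5, 41.95 and 43.9 CPM in normoxia and 66.7, 74.3 and 82.3 CPM in OGD/R, and rose by 0.86 on the log2 scale (SE 0.058, adjusted p = 1.44e-10). Gbp4, of the same family as Gbp2, rose by 0.86 (SE 0.13, adjusted p = 1.04e-05) from 3.91, 4.48 and 6.13 to 6.72, 8.398 and 10.2 CPM. Ifitm3, which blocks virus entry at endosomes, fell by 0.93 (SE 0.10, adjusted p = 2.91e-07), from 82.3, 108 and 124 CPM to 45.6, 55.96 and 68.2 CPM. Its relative Ifitm2 fell by 0.53 (adjusted p = 0.000476), from a mean of 134 to 92.8 CPM. Samhd1 was also called higher, and Tnfsf10, Trim5, Sp100 and Tdrd7 were called lower. The Sp100 call was lost in 5 of 25 alternatives (adjusted p of up to 0.0855). Those of Samhd1 and Tdrd7 were lost in the 3 limma fits on the deposited CPM (up to 0.0779 and 0.0799). Fibroblast and meningeal markers fell with Ifitm2 and Ifitm3, as given above, and their part was not tested.

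With the compounds, 1 of the 51 further pathway genes (1.96%) was called, higher than in OGD/R. Of all genes 0.325% were called higher with DMT and 1.86% with DMT and BD1063. That pathway gene was the inhibitor Socs3, whose protein blocks cytokine receptors. It stood at 26.8 to 36.03 CPM in normoxia, 24.7 to 34.4 CPM in OGD/R, 40.01, 41.3, 44.9, 43.4 and 31.9 CPM in the DMT group and 30.9, 40.9 and 46.98 CPM (lowest, median and highest) in the BD1063 group. Against OGD/R it rose by 0.50 with DMT (SE 0.11, adjusted p = 0.0467) and by 0.46 with DMT and BD1063 (SE 0.11, adjusted p = 0.0283), both set against the same OGD/R libraries. Its difference between the BD1063 and DMT groups was -0.041 (interval -0.28 to 0.19). The call with DMT was lost with any 1 of the libraries OGD/R 1 to 5 and DMT 1 to 4 left out (adjusted p of 0.0637 to 0.149), without the low-count filter (0.0671), with only the DMT and OGD/R groups in the fit (0.264) and with limma on the deposited CPM (0.269 to 0.319). The call with BD1063 was lost without OGD/R 2 or BD1063 3, 4, 5 or 6 (0.0529 to 0.0773).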

How the data were processed

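RNA of 23 endothelial lysates was sequenced as single reads from poly-A enriched, strand-specific libraries, per the labels' protocols. The submitters' processing notes list the assembly Rnor_6.0 and, without settings or order, RSEM 1.3.3, STAR 2.7.10a, DESeq2 1.38, cutadapt 3.4 and FastQC 0.11.9. The authors deposited whole-number counts per gene. A second table deposited by the authors, named as TPM, held each count divided by 1 number per library, which makes its unit CPM. In it 100% of values were whole reads (tolerance 0.01) and equal to the counts. A fit of edgeR on those recovered reads is thus the main fit again, with the same 4916 genes called for OGD/R against normoxia. Counts of alternatives include that run.

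Groups came from the sample labels. Genes with enough reads (edgeR's filterByExpr, minimum 10) were tested in R 4.3.3 with edgeR 4.0.16, as TMM-scaled counts of all 23 libraries in 1 quasi-likelihood fit of 4 group means, two-sided, with Benjamini-Hochberg adjustment over 13834 genes and a threshold of 0.05. Standard errors are the log2 fold change over the root of F, and intervals are 95%. The comparisons share libraries. DESeq2 1.42.0, limma 3.58.1 (voom, and log2 of the deposited CPM plus 1 or 0.1), other filters, the replicate number as a block and leaving out libraries were alternatives. The fit was tested on simulated data.

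The genes and the lists of pathway genes and cell markers were chosen with earlier results of these data known. All members are named; full statistics are given for called ones, at most the 12 with the smallest p in a comparison, and values for up to 4 called pathway genes per list. A further pathway gene that the counts include is not reported here. Counting error alone is covered by the floor of 3 reads.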

Additional observations from a re-analysis of the deposited data

Results flagged for a closer look

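In 140 sets of values (35 genes in 4 groups), 13 held a library far from the rest of its group by Dixon's test at 95%, which chance flags in about 1 set of 20. Library DMT 5 gave 6 of them. There Bst2 (397.7 CPM, others 169.2 to 182.8) and Ifi27 (645.1 CPM, others 376 to 410.4) were high, and Eif2ak2 (70.33 CPM, others 77.01 to 79.13), Trim25 (30.33 CPM, others 44.42 to 47.79), Parp14 (68.82 CPM, others 107.2 to 121.2) and Dtx3l (12.01 CPM, others 18.58 to 19.37) were low. OGD/R 5 gave 3, all low, with Ifih1 at 14.38 CPM (others 18.45 to 19.99), Irf2 at 52.74 CPM (others 63.37 to 67.67) and Trim21 at 23.59 CPM (others 28.46 to 30.92). Gbp2 stood high in DMT 2 (91.75 CPM, others 76.59 to 80.79) and in BD1063 6 (109.3 CPM, others 81.01 to 90.26). Dhx58 was high in DMT 4 (4.845 CPM, others 3.366 to 3.729) and Gbp5 in normoxia 5 (22.12 CPM, others 17.26 to 18.82).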

How the results depend on the processing

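No fold change of a called gene turned its direction under any alternative run. For OGD/R against normoxia the 15 calls became 11 to 15 with 1 library left out and stayed within 11 to 18 under the other alternatives. For DMT against OGD/R the 2 calls became 1 without the low-count filter, 0 with only these groups in the fit, 0 in each of the 3 fits of limma on the deposited CPM, and 1 to 3 with 1 library left out. For the BD1063 group against OGD/R the 1 call became 2 with DESeq2, 2 with limma voom, 2 with only these groups, 0 in each limma fit on the deposited CPM, and 0 to 2 with 1 library left out. Against the DMT group it was 0 throughout. The cause was not tested. The scale of the deposited CPM moved the median of all genes in the BD1063 group against OGD/R from -0.015 to 0.11 (log2 of CPM plus 0.1).

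Over all genes, DMT against OGD/R gave 45 higher and 23 lower, but 144 and 114 with DESeq2, 278 and 451 with limma voom, 29 and 8 without the filter and 4 and 0 with only these groups. The BD1063 group against OGD/R gave 257 and 478, but 573 and 724 with DESeq2, 632 and 1018 with limma voom, 140 and 117 without the filter and 734 and 766 with only these groups.

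Same-numbered libraries deviated together little at the median (r of 0.0106 over 33 pairs, -0.0097 over the other 165). Of the 33 pairs 11 were over 0.1, the highest at 0.58, and 6 of 23 libraries correlated best with their own number. A median near 0 cannot exclude that some numbers pair libraries, and whether they do is not known. With the replicate number as a block the calls were 14, 2, 0 and 2, for OGD/R against normoxia, DMT against OGD/R, BD1063 against DMT, and BD1063 against OGD/R.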
